A study of Homo sapiens with 4 samples.

Results

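The 46 genes described here are neighbours near the end of the long arm of chromosome 8, in the band labelled 8q24.3, and run from ZC3H3 to ZNF16 in chromosome order. They were chosen by position, with their intensities in cisplatin-resistant against parental cells already known, so that this contrast is given for them as a description and supports nothing by itself. Of the 46 genes, 39 had at least 1 named row on the arrays (47 rows), among 15073 named genes in all. NRBP2, OPLAH, HSF1, DGAT1, ADCK5, LRRC14 and RPL8 had no named row and were not analysed here. The gene table used for the order (RefSeq, assembly GRCh38.p14) placed all 46 on chromosome 8 and listed 67 protein-coding genes between the start of ZC3H3 and the end of ZNF16, so the list is a large part of the region and not the whole of it. It gives no bands, and the band is that of the label.

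The distal end of 8q is densely packed with short genes, many of which serve tasks that every cell performs, such as RNA processing, translation, respiration and membrane traffic. It also carries genes with a special role in epithelia, among them PLEC and EPPK1, whose proteins tie keratin filaments together and to the cell membrane. Gains of the long arm of chromosome 8 are common in squamous carcinomas of the head and neck.

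All RNA came from CAL-27, a long-used cell line from a human squamous carcinoma of the tongue. The parental group was CAL-27 itself (2 arrays), and the resistant group (2 arrays) was CAL-27 that had been exposed to cisplatin, a DNA-crosslinking platinum drug, at concentrations rising from 1e-07 M to 1e-05 M. The series calls the arrays of a group biological replicates. Whether the resistant cells were a clone or a pool, and whether the drug was present at harvest, is not given in the sources used here. The study asked which transcripts, long non-coding RNAs above all, differ between the 2 states.

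Each array gave 42152 normalized intensities on a linear scale, with medians between 141 and 149.9 and highest values between 62616 and 65071. With 4 arrays, their number limits how precise any value can be. Of 8 listed epithelial markers, not all of them particular to squamous cells, all had a named row. Their parental means lay between 10.28 and 15.71 on the log2 scale, and in the resistant arrays the range was 6.53 to 15.27. DSG3, KRT14 and TP63 were called lower by limma, with resistant means of 6.53, 9.14 and 10.85, whereas CDH1 and EPCAM differed by 0.76 and 0.91 with both resistant arrays above both parental ones, and KRT5, KRT17 and SFN differed by between -0.82 and -0.44. Of 7 measured markers of leukocytes, endothelium and fibroblasts, 5 had means under 7 in both groups, and CD3E and CD68 were at 8.01 and 11.58 in parental and 8.23 and 11.35 in resistant cells. What part a change in cell type could have in the values below was not tested.

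In the resistant arrays, 37 of the 39 measured 8q24.3 genes had a lower mean than in the parental arrays. A difference below 0 was found in 51.7% of all named genes. Resistant minus parental means had a median of -0.84 on the log2 scale, a 1.79-fold lower intensity, with quartiles of -1.20 and -0.59. The same median was -0.03 for all 15073 named genes, and their quartiles lay at -0.49 and 0.48. These are RNA levels of bulk samples, in which fewer cells that express a gene and less RNA per cell cannot be told apart.

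Both resistant arrays lay below both parental arrays for 36 of the 39 genes, where 31.0% of all named genes did so. In 1 gene, PARP10, both lay above, where 27.9% of all named genes did so, and in SPATC1 and GPT the groups overlapped. A difference of at least 2-fold downward was seen in 16 of the 39 genes (9.1% of all named genes), and 28 lay between -0.5 and -1.5 (20.7% of all named genes). With limma and Benjamini-Hochberg adjustment over all 15073 genes at 0.05, 5 of the 39 were called lower (GFUS, EPPK1, PLEC, CYC1 and BOP1) where 2.83% of all genes were, and 6.1% were called in either direction. None was called higher, where 3.26% of all genes were, and none was higher at an unadjusted p under 0.05 either, where 13.8% of all genes were, whereas 27 were lower at that level, where 14.4% of all genes were. Among genes with a mean above 8 on the log2 scale tested alone, 25 of 32 were called lower, where 20.1% of such genes were. Since this contrast helped to choose the genes, nothing is read from these counts. The 5 calls were lost (0 of 39) without any 1 of the arrays, with the replicate number as a block and with all rows tested together, and 25 were made with limma's prior variance following intensity, where 11.5% of all genes were lower.

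**Figure D1:**
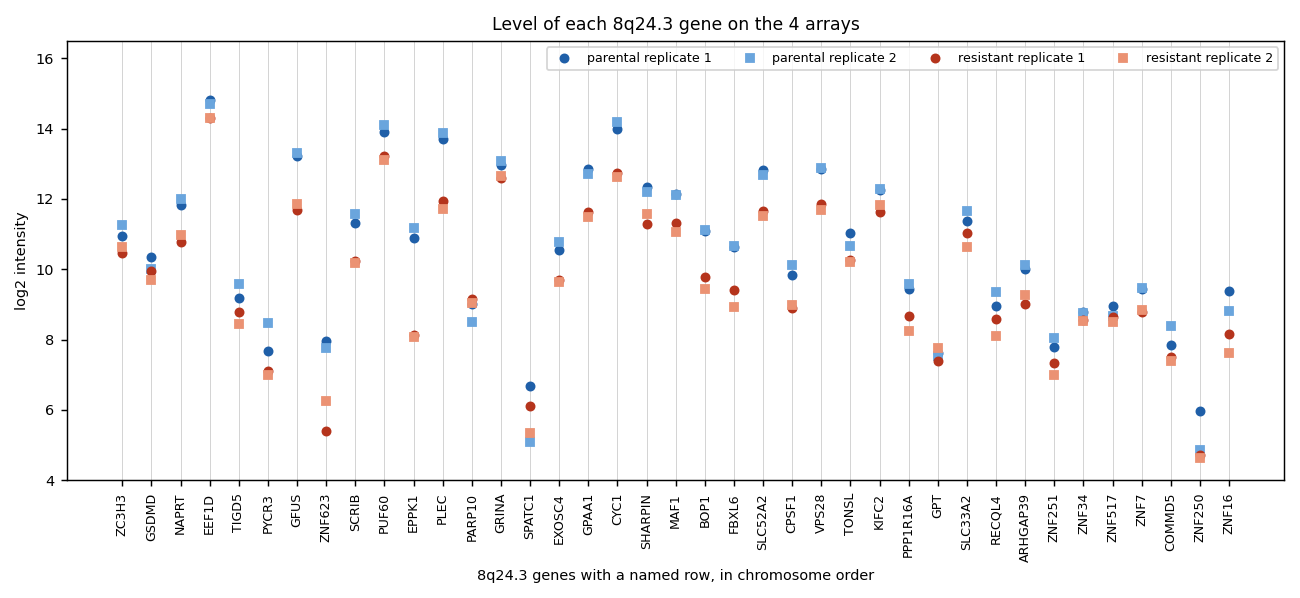
Log2 intensity (y axis) of the 39 measured 8q24.3 genes (x axis, chromosome order) on each of the 4 arrays, blue for parental and red for resistant, with circles for replicate 1 and squares for replicate 2. In 36 genes both red points lie below both blue points, and the exceptions are PARP10, SPATC1 and GPT.

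Over the 39 genes, the absolute difference between the replicates of a group had a median of 0.21 in the parental and 0.18 in the resistant arrays, where all named genes had 0.32 and 0.26. Among genes with a mean above 8 on the log2 scale, it was 0.16 and 0.18 for 32 listed genes. For all 8022 such genes it was 0.20 and 0.17. With its sign, replicate 2 minus replicate 1 had a median of 0.05 over the 39 genes in the parental arrays and of -0.11 in the resistant arrays, a comparison that the choice of genes did not use. Over all named genes these medians were 0.07 and 0.01. Resistant replicate 2 was above replicate 1 in 11 of the 39 genes (7664 of all 15073), and parental replicate 2 was above replicate 1 in 24 (8673 of all 15073). Set pair by pair, resistant replicate 1 against parental replicate 1 gave the smallest median difference over the 39 genes, -0.77, and resistant replicate 2 against parental replicate 2 the largest, -1.04. All 4 pairings of a resistant with a parental array thus showed between 36 and 38 genes below 0.

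**Figure D2:**
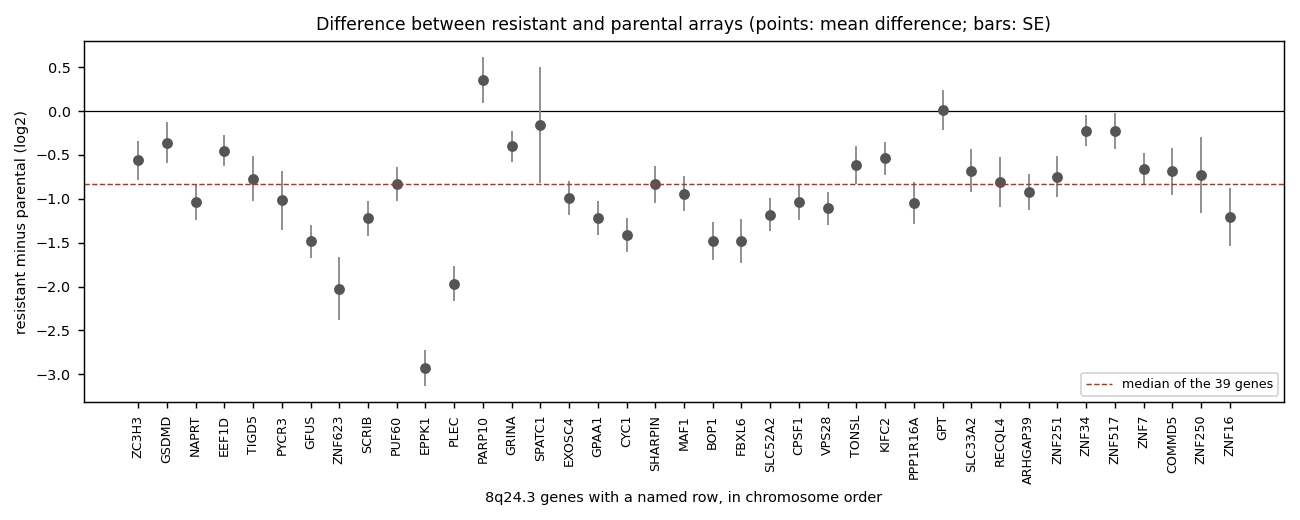
Difference between resistant and parental means on the log2 scale (y axis) for the 39 measured 8q24.3 genes in chromosome order (x axis), with limma's moderated SE as bars and the median of -0.84 as a dashed line. EPPK1, ZNF623 and PLEC lie lowest, and PARP10 and GPT are the genes above 0.

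Genes of the cytoskeleton and of cell polarity included the most lowered of the list. EPPK1 encodes epiplakin, a plakin that binds keratin filaments in epithelial cells. Its log2 intensity was 10.88 and 11.16 in parental replicates 1 and 2 and 8.12 and 8.07 in resistant replicates 1 and 2. The resistant arrays agreed closely and lay well under both parental ones, a difference of -2.93 ± 0.20 (limma's moderated SE, n = 2 arrays per group), or 7.61-fold. PLEC, the gene of plectin, which anchors intermediate filaments to hemidesmosomes, had 13.72 and 13.86 in the parental and 11.94 and 11.70 in the resistant arrays. That is a difference of -1.97 ± 0.20, or 3.91-fold, and a dimmer row of PLEC gave almost the same difference, -2.01. SCRIB encodes a scaffold of the basolateral polarity complex and measured 11.31 and 11.56 against 10.24 and 10.19, which is -1.22 ± 0.20. The other row of SCRIB differed by -1.56, so both rows put the resistant arrays lower by more than 2-fold. PPP1R16A, a regulatory subunit of protein phosphatase 1, differed by -1.05 ± 0.24, ARHGAP39 by -0.92 ± 0.21, and KIFC2, a kinesin, by -0.54 ± 0.19. SPATC1, a gene known from sperm, was dim on every array, and its parental replicates (6.68 and 5.08) spanned both resistant values (6.11 and 5.33). Its 2 rows also disagreed, at -0.16 and -1.11, so that no difference can be read for it.

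Genes of metabolism and transport were lower with 1 exception. GFUS encodes the enzyme that makes GDP-fucose, the donor of fucose for glycoproteins, and measured 13.24 and 13.29 in parental and 11.69 and 11.87 in resistant arrays. The groups lay far apart beside the spread within each, a difference of -1.49 ± 0.19 or 2.80-fold. CYC1, the cytochrome c1 subunit of respiratory complex III, had 13.99 and 14.20 against 12.73 and 12.63, which is -1.41 ± 0.19. SLC52A2, a riboflavin transporter, had 12.84 and 12.68 against 11.65 and 11.51, which is -1.18 ± 0.19. Both thus lay lower by more than 2-fold with replicates close together. NAPRT, an enzyme of NAD synthesis from nicotinic acid, differed by -1.04 ± 0.20 and PYCR3, an enzyme of proline synthesis, by -1.02 ± 0.33. The parental replicates of PYCR3 were 7.69 and 8.47, so its difference is among the less precise. SLC33A2, listed under its former symbol MFSD3 and a member of the solute carriers, differed by -0.68 ± 0.25. The exception was GPT, an alanine aminotransferase known best from the liver, at 7.61 and 7.52 in parental and 7.39 and 7.77 in resistant arrays. Its difference of 0.01 ± 0.22 was smaller than the distance between the resistant replicates.

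The measured genes of translation and RNA processing were all lower. BOP1, a factor for the maturation of the large ribosomal subunit, measured 11.08 and 11.11 in parental and 9.79 and 9.44 in resistant arrays, a difference of -1.48 ± 0.22 or 2.78-fold. EEF1D, the delta subunit of translation elongation factor 1, was much less changed, with 14.80 and 14.69 against 14.30 and 14.29. Its difference was -0.45 ± 0.18 in this row and -0.54 in the other. CPSF1 recognises the polyadenylation signal as a subunit of the cleavage complex, and EXOSC4 is a core subunit of the RNA exosome. They differed by -1.03 ± 0.21 and -0.99 ± 0.19, close to a 2-fold lower level each. PUF60, a splicing factor that binds polyuridine, measured 13.90 and 14.10 against 13.23 and 13.11, which is -0.83 ± 0.19, and -0.97 in its other row. ZC3H3, a zinc finger protein with a role in the export of polyadenylated RNA, had the smallest difference of the RNA processing genes, -0.56 ± 0.22.

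All 9 measured transcription regulators were lower, over a wide range. ZNF623, a zinc finger gene, measured 7.96 and 7.75 in parental and 5.41 and 6.27 in resistant arrays, a difference of -2.02 ± 0.36. With resistant values this dim, the fold of 4.06 is nominal. ZNF16, another zinc finger gene, had 9.38 and 8.81 against 8.15 and 7.62, which is -1.21 ± 0.33, and its other row gave -0.93. MAF1 represses RNA polymerase III and differed by -0.94 ± 0.20, from 12.14 and 12.12 down to 11.31 and 11.06. The other zinc finger genes, which bind DNA, spread from -0.75 ± 0.23 in ZNF251 and -0.66 ± 0.18 in ZNF7 to -0.23 ± 0.21 in ZNF517 and -0.22 ± 0.18 in ZNF34. The last 2 were lower by less than 1.2-fold. ZNF250 was near the floor of the arrays (5.97 and 4.86 against 4.72 and 4.65), and no size is read for it. TIGD5, derived from a DNA transposase, differed by -0.77 ± 0.25. The 7 measured ZNF genes of the list had a median difference of -0.73, with quartiles of -0.98 and -0.44. That median is the value of ZNF250 itself, and 3 of the 7 had a mean under 8, so it is imprecise. The 361 named ZNF genes on other chromosomes had a median of -0.03, with quartiles of -0.42 and 0.35.

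Genes of cell death, immune signalling, DNA repair and membrane traffic were lower by 1.28-fold to 2.79-fold, apart from PARP10. FBXL6, a substrate receptor of a ubiquitin ligase, measured 10.63 and 10.66 in parental and 9.42 and 8.92 in resistant arrays, which is -1.48 ± 0.25, and -1.21 in its other row. SHARPIN, a subunit of the linear ubiquitin ligase that acts in NF-kB signalling, differed by -0.84 ± 0.21. GSDMD, which forms the membrane pores of pyroptosis, differed by -0.36 ± 0.23, from 10.35 and 10.00 to 9.94 and 9.69. Its groups did not overlap, yet its lowest parental and highest resistant value were only a little apart. The DNA replication and repair genes RECQL4, a helicase, and TONSL, which works at stalled replication forks, differed by -0.81 ± 0.28 and -0.62 ± 0.22. PARP10, a mono-ADP-ribosyltransferase, measured 9.01 and 8.49 in parental and 9.17 and 9.04 in resistant arrays, a difference of 0.35 ± 0.26. It was the single gene whose resistant arrays were both higher, by less than the distance between its parental replicates. GPAA1, a subunit of the transamidase that attaches GPI anchors to proteins, had 12.86 and 12.71 against 11.64 and 11.49, which is -1.22 ± 0.19. VPS28, a subunit of the ESCRT-I sorting complex, had 12.86 and 12.88 against 11.85 and 11.67, which is -1.11 ± 0.19, and -0.95 in its other row. COMMD5 (-0.69 ± 0.26), of the COMMD family of trafficking proteins, and GRINA (-0.40 ± 0.18), a membrane protein of the TMBIM family, were lowered less.

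For 8 of the genes, 2 rows were on the arrays. Both rows lay below 0 in all 8, and in 7 they differed from each other by less than 0.5 on the log2 scale, the exception being SPATC1. Overlapping genes limit what a row can be assigned to, since both strands were labelled. By the gene coordinates, 11 of the 39 overlapped another protein-coding gene, among them TIGD5 with PYCR3, PARP10 with GRINA and SPATC1, and ZNF7 with COMMD5.

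By position, the differences were deepest in the first and middle parts of the run. In 3 runs of 13 genes, the medians were -1.02 from ZC3H3 to PARP10, -1.03 from GRINA to TONSL and -0.69 from KIFC2 to ZNF16. At least 2-fold lower were 53.8% of the genes in each of the first 2 runs and 15.4% in the last. Across the 39 genes, which share the arrays and their scaling, Spearman's rank correlation was -0.25 between the difference and the mean intensity and 0.19 between the difference and the order.

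The genes that lie in the same stretch but are not on the list showed a similar shift. Of 13 such genes with a named row, 11 had a difference below 0, where 51.7% of all named genes did. The median of the 13 was -0.96. Both resistant arrays lay below both parental arrays in 9 of them, where 31.0% of all named genes did so. The 13 include TMEM276 and the joint entry TMEM276-ZFTRAF1 as separate genes. HGH1, which lies after MAF1, had the largest difference, -2.00 ± 0.22, from 11.05 and 11.15 to 9.27 and 8.93. C8orf82 (-1.32 ± 0.19), TMEM276 (-1.28 ± 0.28), the zinc transporter gene SLC39A4 (-1.23 ± 0.19), FAM83H, a gene of keratin filament organisation (-1.18 ± 0.24), and MROH6 (-0.97 ± 0.18) followed. LINC02878 (0.66 ± 0.26), a dim non-coding gene, and MAPK15 (0.12 ± 0.21), an atypical MAP kinase, were the 2 above 0, and both are listed next to each other after ZNF623. These genes share the stretch and the contrast that drew attention to it, so they are described and not tested.

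**Figure D3:**
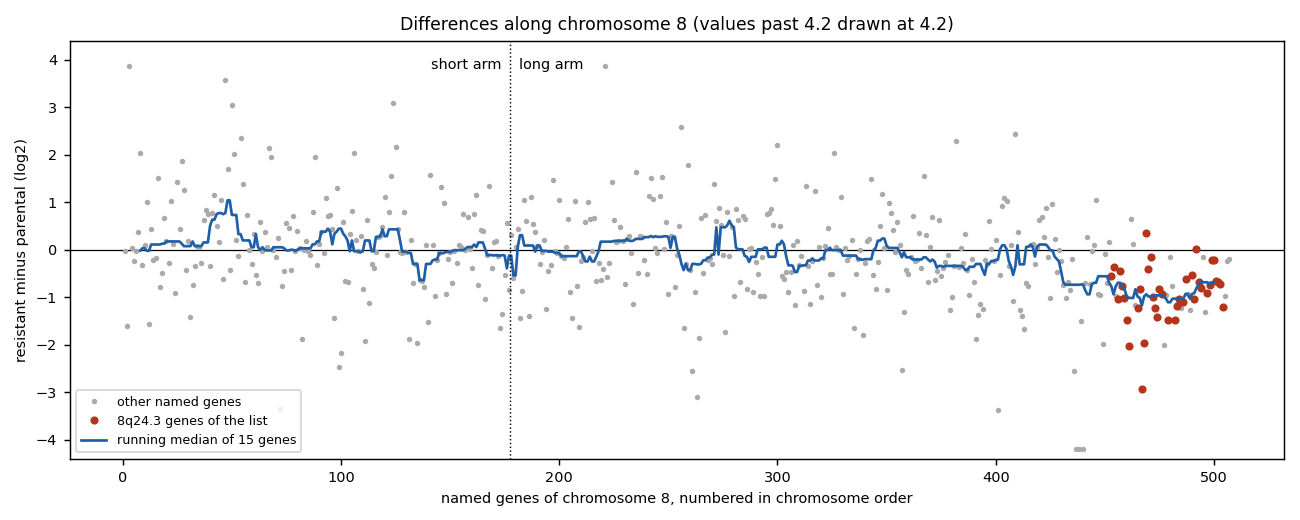
Difference between resistant and parental means (y axis, log2) for the 507 named genes of chromosome 8 in chromosome order (x axis, gene number), with the 39 listed genes in red, other genes in grey and a running median of 15 genes in blue. The running median stays near 0 along most of the chromosome. It reaches its highest value, 1.04, around C8orf48 on the short arm and its lowest, -1.18, around EPPK1.

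The rest of chromosome 8 did not show the shift as a whole. The 468 other named genes of the chromosome had a median difference of -0.04. The 177 genes of the short arm had one of 0.055, and the 275 genes of the long arm before ZC3H3 one of -0.14. The sign for the short arm turned with the scaling, to -0.016 after median centring and -0.0025 among genes with a mean above 8. The running median over 15 genes was lowest around EPPK1, at -1.18, and highest around C8orf48 on the short arm, at 1.04. Among windows without any listed gene its lowest value was -0.94, around CYP11B1, shortly before ZC3H3. Counted back from ZC3H3 in blocks of 39 genes, the nearest block (ZFAT to MAFA) had a median of -0.31, the next (MRPL13 to NDRG1) -0.34 and the one before (NCALD to COL14A1) -0.05. Within these blocks the running median was -0.31 around NDRG1, 0.06 around ZFAT and -0.94 around CYP11B1. The lower medians before the list thus did not form an unbroken stretch back to NDRG1. From ARC to ZC3H3, however, the running median was -0.46 or lower at every named gene. Windows from GPIHBP1 onward already include listed genes.

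The genes next to the list on its inner side varied more than the listed ones. TOP1MT, a mitochondrial topoisomerase, measured 11.54 and 11.38 in parental and 9.65 and 9.31 in resistant arrays, a difference of -1.98 ± 0.22. GLI4, a zinc finger gene, differed by -0.96 ± 0.23. RHPN1 (-0.10 ± 0.42), its antisense RNA RHPN1-AS1 (-0.70 ± 0.43) and MAFA (0.15 ± 0.55) were dim and imprecise. On the outer side, ZNF252P (-0.98 ± 0.42), TMED10P1 (-0.24 ± 0.62) and ZNF252P-AS1 (-0.20 ± 0.72) were the named genes left, all of them non-coding or pseudogenes with replicates far apart.

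Whole chromosomes differed little, with medians between -0.20 (chromosome 1) and 0.24 (chromosome 4) over 23 chromosomes and -0.13 for chromosome 8. The listed genes lie in a crowded region: 35 of the 39 were among the 3015 named genes with the most neighbours, between 52 and 144 within 500 kb on each side. Those 3015 genes had a median difference of -0.04, with quartiles of -0.49 and 0.41. Their rows were also mostly bright, 32 of 39 having a mean above 8 on the log2 scale where 53.2% of all named genes did. Among genes above that level the medians were -0.93 for the 32 and -0.08 for all 8022.

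**Figure D4:**
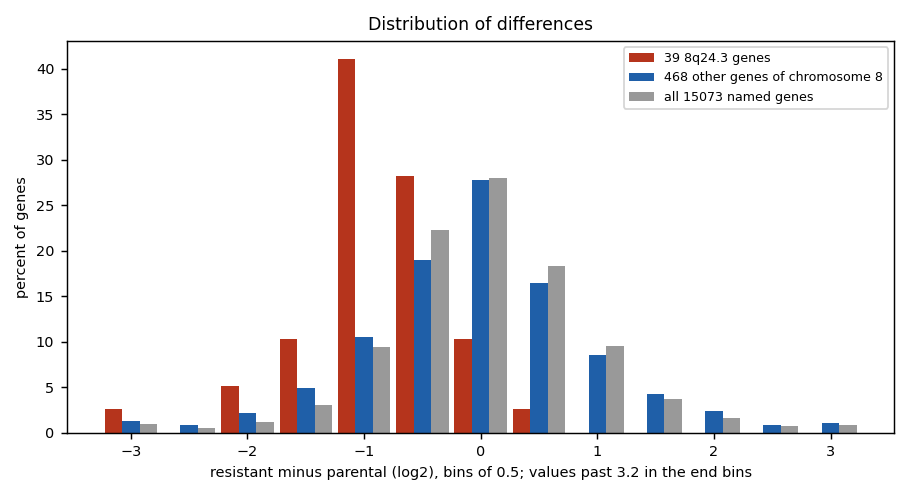
Percent of genes (y axis) by difference between resistant and parental means (x axis, log2, bins of 0.5) for the 39 listed genes, the 468 other named genes of chromosome 8 and all 15073 named genes. The listed genes peak in the bin from -1.25 to -0.75, which holds 41.0% of them, and the other groups peak in the bin from -0.25 to 0.25.

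Proteins of the 8q24.3 genes work in complexes and pathways whose other members are encoded elsewhere, and 18 lists of such partners, taken as wholes, were set beside them. Of 225 measured partner genes on other chromosomes, 5 fell, 4 rose and 216 did not pass limma's test, and their median difference was -0.18. Over all genes 2.83% were called lower and 3.26% higher. All 9 calls were lost without any 1 of the arrays, with the replicate block and with all rows tested together. With limma's prior variance following intensity, 44 partners were lower and 15 higher, where 11.5% and 9.93% of all genes were. The lists were chosen with earlier results of these data known.

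The plakins were the partner list with the most genes that fell. DSP, the gene of desmoplakin, fell by 3.11 ± 0.18 (limma, adjusted p = 0.0165), and EVPL, the gene of envoplakin, fell by 2.27 ± 0.24 (adjusted p = 0.0295). DST, the gene of dystonin, fell by 2.23 ± 0.23 (adjusted p = 0.0295). PPL, which encodes periplakin, differed by -0.87 ± 0.19 (adjusted p = 0.0802), and MACF1, a crosslinker of actin and microtubules, by 0.48 with both resistant arrays above both parental ones. The median of the 5 measured plakins was -2.23.

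Partners of BOP1 in ribosome biogenesis were below 0 in 16 of 17 genes (51.7% of all named genes), with a median of -0.73. None of them passed limma's test over all genes, 10 were lower at an unadjusted p under 0.05 (14.4% of all genes), and 10 were lower with the prior variance following intensity (11.5% of all genes). NPM1, the nucleolar chaperone nucleophosmin, differed by -1.02 ± 0.18 (adjusted p = 0.0629) and RRP12, a ribosome assembly factor, by -0.91 ± 0.18 (adjusted p = 0.0754). BOP1 itself differed by -1.48.

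Heat shock targets of HSF1, a gene of the list without a row, had a median of -0.45. They were below 0 in 16 of 17 cases, where 51.7% of all named genes were. HSPB1, a small heat shock protein, fell by 1.48 ± 0.20 (limma, adjusted p = 0.0410), and the other 16 did not pass. HSP90AA1 differed by -1.18 ± 0.19 (adjusted p = 0.0525) and HSPA1A, an HSP70 gene, by -0.88 ± 0.18 (adjusted p = 0.0774). HSPA1A and HSPA1B are near-identical copies and may share probe signal.

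In complex III the 8 measured genes had a median of -0.33 where CYC1 differed by -1.41; BCS1L, its assembly factor, differed by -1.22 ± 0.28 (adjusted p = 0.0890) and UQCRFS1, the iron-sulfur subunit, by -0.89 ± 0.22 (adjusted p = 0.101). None of the 8 passed limma's test, and 3 were lower at an unadjusted p under 0.05, where 14.4% of all genes were. The 3 measured subunits of the GPI transamidase other than GPAA1 had a median of 0.13, and 18 genes of GPI synthesis one of -0.05. For ESCRT-I the median of the 7 partners of VPS28 was 0.23, and for cleavage and polyadenylation that of the 16 partners of CPSF1 was -0.06. The exosome genes other than EXOSC4 had a median of -0.11 over 11 genes. Of the 11, 7 lay below 0 and 4 above, where 51.7% of all named genes lay below 0. The lowest was EXOSC3 at -0.98 ± 0.18 (limma, adjusted p = 0.0638), and the highest difference was 0.84. The 6 partners of EEF1D had one of -0.20 and the 56 ribosomal protein genes one of -0.15. Neither the partners nor the listed subunits were tested against each other, since the listed genes were chosen with this contrast known.

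**Figure D5:**
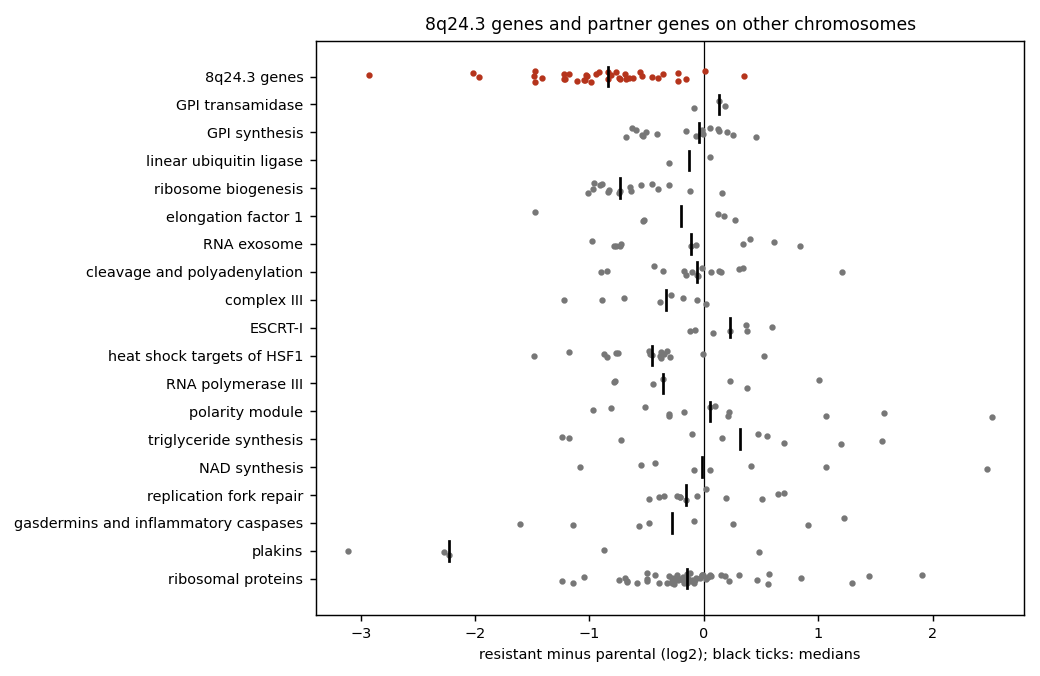
Difference between resistant and parental means (x axis, log2) for the 39 listed genes in red and for the measured genes of the 18 partner lists on other chromosomes in grey (y axis, 1 line per list), with medians as black ticks. The listed genes have a median of -0.84, and the plakins (-2.23) and ribosome biogenesis (-0.73) are the partner lists with the lowest medians.

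In the remaining lists single genes moved in either direction. In the polarity module, PARD6B rose by 2.52 ± 0.21 (limma, adjusted p = 0.0217) and PARD3 by 1.57 ± 0.21 (adjusted p = 0.0402), both encoding partitioning proteins of the apical complex, and 11 of 13 genes did not pass; the median was 0.06 where SCRIB differed by -1.22. In NAD synthesis, NAMPT, the enzyme that recycles nicotinamide, rose by 2.48 ± 0.22 (adjusted p = 0.0228), although it was dim with a mean of 6.32, and 7 of 8 did not pass. Of the gasdermins and inflammatory caspases, PYCARD, the adaptor of inflammasomes, fell by 1.61 ± 0.22 (adjusted p = 0.0414), and IL1B, an inflammatory cytokine, rose by 1.23 ± 0.18 (adjusted p = 0.0479). The other 6 measured genes of that list did not pass. GSDMC, a gasdermin gene on chromosome 8 that was left out of the list for its position, fell by 3.37 ± 0.42 (adjusted p = 0.0370).

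Other lists had no gene past limma's threshold over all genes. Replication fork repair had a median of -0.15 over 13 genes, and none was lower or higher at an unadjusted p under 0.05, where 14.4% and 13.8% of all genes were. RNA polymerase III had a median of -0.36 over 7 genes (2 lower and 1 higher at that level), and triglyceride synthesis one of 0.32 over 10 genes (1 lower and 2 higher). The 2 measured partners of SHARPIN, RNF31 and OTULIN, differed by 0.06 ± 0.19 and -0.31 ± 0.29.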

How the data were processed

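Total RNA of 4 samples was measured on NimbleGen 1-colour arrays. The labels' protocols describe cDNA of both strands, primed with oligo-dT and then labelled with Cy3 random primers, so that a gene and an overlapping or antisense gene cannot be told apart. The deposited values are normalized intensities on a linear scale. They were made with RMA by the authors, per the submitters' processing notes; RMA equalises the distributions of the arrays, so a shift of all RNA would not be seen. Its version and the filter on rows are not given in the sources used here. Dim values have no stated bound, as detection calls were not used.

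Intensities were taken to log2 without further scaling. Rows were named from the platform annotation (17899 rows) or by RefSeq accession (674 rows), with symbols updated through the RefSeq table (GRCh38.p14). The row with the highest mean stood for a gene, giving 15073 genes. The test was limma 3.58.1 (R 4.3.3), with lmFit and eBayes and no covariates, and Benjamini-Hochberg adjustment at 0.05. Tested on simulated data, this fit recovered the size of the changes but passed none of the changed genes. A gene that did not pass is thus not shown to be unchanged. The simulation changed fewer genes than this fit called in the arrays, all by the same size, so its count of passes does not carry over. With the prior variance following intensity, most of the changed genes passed there. Nothing says that the replicates were separate cultures beyond the word biological, so p-values measure the spread between these arrays. Chromosome Y is left out of chromosome summaries.

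The members, role groups, partner lists and alternatives were chosen with earlier results of these data known. Every measured member is named; 4-array values are given for the 10 largest differences, for members with 2 rows and for the highest and lowest levels, and for others where they help. Up to 4 genes per partner list were eligible by smallest p, 6 others of the stretch by size, and 5 neighbours on each side; LINC02878, MAPK15 and the marker genes were named after their values were seen. Alternatives changed the choice of rows, the scaling, the offset, the filter on dim genes, the prior variance, the block and the arrays included. Promoter sequence was not used here. Same-numbered replicates share only a number: the differences between replicates of both groups correlated at 0.14 over genes, with 2 pairs.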

Additional observations from a re-analysis of the deposited data

How the results depend on the processing

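The median difference of the 39 genes lay between -0.96 and -0.82 when each array was left out in turn. Under the scalings, the offset, the filter and the mean of rows it lay between -0.93 (filter) and -0.82 (offset), beside -0.84 in the main fit. Single directions that turned were those of GPT (median centring, quantile normalization, and without parental replicate 2 or resistant replicate 2) and SPATC1 (without parental replicate 1 or resistant replicate 2). Counts of calls depended on the fit. All 919 genes called in all, with the 5 listed and 9 partner genes among them, were lost when all rows were tested together (0, 0 and 0), with the replicate block (0, 0 and 0, though 21 of the 39 had an unadjusted p under 0.05) and without any 1 array (between 0 and 0 each); the last fits have 1 residual degree of freedom, so a lone array is assumed to vary like the others. The fit with the replicate block likewise has 1 residual degree of freedom. The counts were 3234, 25 and 59 with the prior variance following intensity, 2112, 19 and 29 with log2(intensity + 50), and 2876, 25 and 56 among genes with a mean over 8. Listed genes called numbered 9 with the mean of rows and 8 after median centring. On chromosome 8 the short arm's median was 0.074 with the mean of rows, -0.016 after median centring, 0.032 after quantile normalization, 0.028 with the offset, -0.0025 among bright genes, and between 0.090 and 0.13 without 1 array. The long arm before ZC3H3 had -0.21, -0.17, -0.10 and -0.20 after median centring, quantile normalization, the offset and the filter, and between -0.15 and -0.10 without 1 array. Beyond ZNF16, the median of 3 dim genes was -0.24 with all arrays and between -1.03 and -0.45 without 1 array, lowest without resistant replicate 2. The cause of these changes was not tested. Centring on promoter GC was planned and not run, since 0 of the 46 genes matched in the promoter table used.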
